A study of Sus scrofa with 48 samples.

Results

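Transcripts of triglyceride synthesis and glyceroneogenesis were examined in the subcutaneous fat (SCAT, subcutaneous adipose tissue) of 48 pigs. The members were the acyltransferases GPAM, AGPAT2 and AGPAT3, the phosphatidate phosphatases LPIN1 and LPIN2, the diacylglycerol acyltransferases DGAT1 and DGAT2, the glycerol 3-phosphate suppliers PCK1 and GPD1, and the lipid droplet protein BSCL2. They were chosen by name: a probe belonged to a member when its gene name in the array files, or the gene of its transcript record, was that of the member. All 10 members were found, of 12920 genes named on the array, with 37 of its 60305 probes. Probes were used where the scanner software called them well above background in 9 or more of the 12 pigs of any group. This left 35 member probes and all 10 members, among 44356 probes and 11111 genes.

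The pigs were Large White barrows of 2 lines selected in opposite directions for residual feed intake (RFI, feed consumed above or below what growth and body condition predict), so that low RFI pigs are the more efficient ones. Within each line, pigs received either a diet rich in fat and fiber (HF, with rapeseed and soybean oils and wheat straw) or a diet rich in starch and low in fat (LF), both of the same energy content. The 4 combinations of diet and line held 12 pigs each with 1 array per pig, and the labels give an age of 132 days for each animal. No pig was on a further diet or from an unselected line, so that each effect below is a difference between the diets or between the lines.

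In adipocytes, triglycerides are built on glycerol 3-phosphate. GPAM adds the first fatty acid, AGPAT enzymes add the next, lipins remove the phosphate to give diacylglycerol, and DGAT1 and DGAT2 add the last fatty acid. As fat cells phosphorylate glycerol poorly, glycerol 3-phosphate comes from glycolysis through GPD1, or from pyruvate and lactate through PCK1, a route named glyceroneogenesis. BSCL2 encodes seipin, which shapes the sites where lipid droplets form at the endoplasmic reticulum. Pig fat makes much of its fatty acid from glucose, and a diet with fat in place of starch changes which substrate reaches this pathway.

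Levels are given as the log2 of the processed brightness of a probe minus the median of the array, so that 0 is the level of the median probe of that array. Levels of different probes cannot be set against each other. Between 62.18% and 81.87% of the probes were well above background per array, no spot was saturated, and the 35 member probes used passed this limit on each of the 48 arrays. The adipocyte markers were present in every group, and all 10 of them passed the filter. The mean level over the 10 adipocyte markers lay between 7.28 and 8.02 in single pigs. The 4 liver markers that passed the filter had a mean level above 1 on 7 arrays, 1 of HF and 6 of LF pigs, with a highest value of 4.54, and the 7 skeletal muscle markers had a mean above 1 on 3 arrays. Several of the results below are also given without these 8 arrays. As the tissue was profiled whole, fewer cells of a type and less RNA per cell cannot be told apart.

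The probes are 60-base oligonucleotides, and 34 of the 37 member sequences are distinct. The following stretches of 30 bases are shown because the results below turn on whether different probes of a gene gave the same answer. DGAT1 had a single probe on the array, named DGAT in the files and assigned through its transcript record, and BSCL2 had 3 that share no run of 15 or more bases.
DGAT1 A_72_P146436: agtctgtcacctacttctggcagaactgga
BSCL2 A_72_P687235: agcaacttcaccttcctcagtgtcatcgtg
BSCL2 O8830: aatctaggggcagcgaggtccatcaggaag
BSCL2 A_72_P178371: gcatgttcttggtcaccatctcctgctaca

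Of the 6 PCK1 probes, 3 overlap near the 3′ end of the transcript record, and capitals mark the run of 19 bases that these 3 share.
PCK1 A_72_P637186: TACTGTGGTTCCCTGCCTTtacataatttc
PCK1 A_72_P098696: ttatttttataTACTGTGGTTCCCTGCCTT
PCK1 A_72_P593929: attattttataTACTGTGGTTCCCTGCCTT

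Of the 8 LPIN1 probes, A_72_P542218 has the same sequence as A_72_P075451, starts at base 594 of its transcript record and is shown with A_72_P312828, which starts at base 208 of that record. The other 3 lines are probes from base 3973 onwards of a longer record.
LPIN1 A_72_P542218: tagaactctttctagtgagatccctccatt
LPIN1 A_72_P312828: ttaacggagagtcagtggatctgcacatga
LPIN1 A_72_P580437: cctggtagaagataattcttttccttgttt
LPIN1 A_72_P253192: ctgctttagcttgggcttgcttattagttt
LPIN1 A_72_P497008: gatgatcgaatcacgaagtgacaagtcatc

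The diet comparison addressed whether this pathway responded when fat and fiber replaced starch, irrespective of line. DGAT1 was down-regulated by the HF diet, by 0.29 on the log2 scale (1.22-fold), and it was the only differentially expressed member. Across the whole array, 13.1% of the probes passed the 3 thresholds for diet (raw p under 0.01, fold change over 1.1 and Benjamini-Hochberg adjusted p under 0.08 in limma), 7.44% of all probes being lower and 5.61% higher under the HF diet. This balance depended on the scaling, as 43% of the calls were higher with median centring and 67.2% with 75th percentile scaling. Of the 35 member probes, 1 passed (2.86%). With each gene represented by its brightest probe, 1 of the 10 members passed, against 12.6% of all genes, 9.33% lower and 3.29% higher. The diet difference was negative for 9 of the 10 members, for 6 of them after scaling to the 75th percentile and for 7 after quantile normalization. Its median was -0.08 over the members and -0.04 over all genes. Over all kept probes the lean was smaller, with 20 of the 35 member probes negative and a median of -0.03 against -0.02 for all probes, and with the mean of all probes of a gene 7 of the 10 members were negative. Genes with many probes weigh more in the count over probes, as 8 of the 35 were of LPIN1 and 6 of PCK1. Without the 8 arrays 9 of 10 were again negative, with a median of -0.14, and 2 members passed (GPAM and DGAT1).

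**Figure D1:**
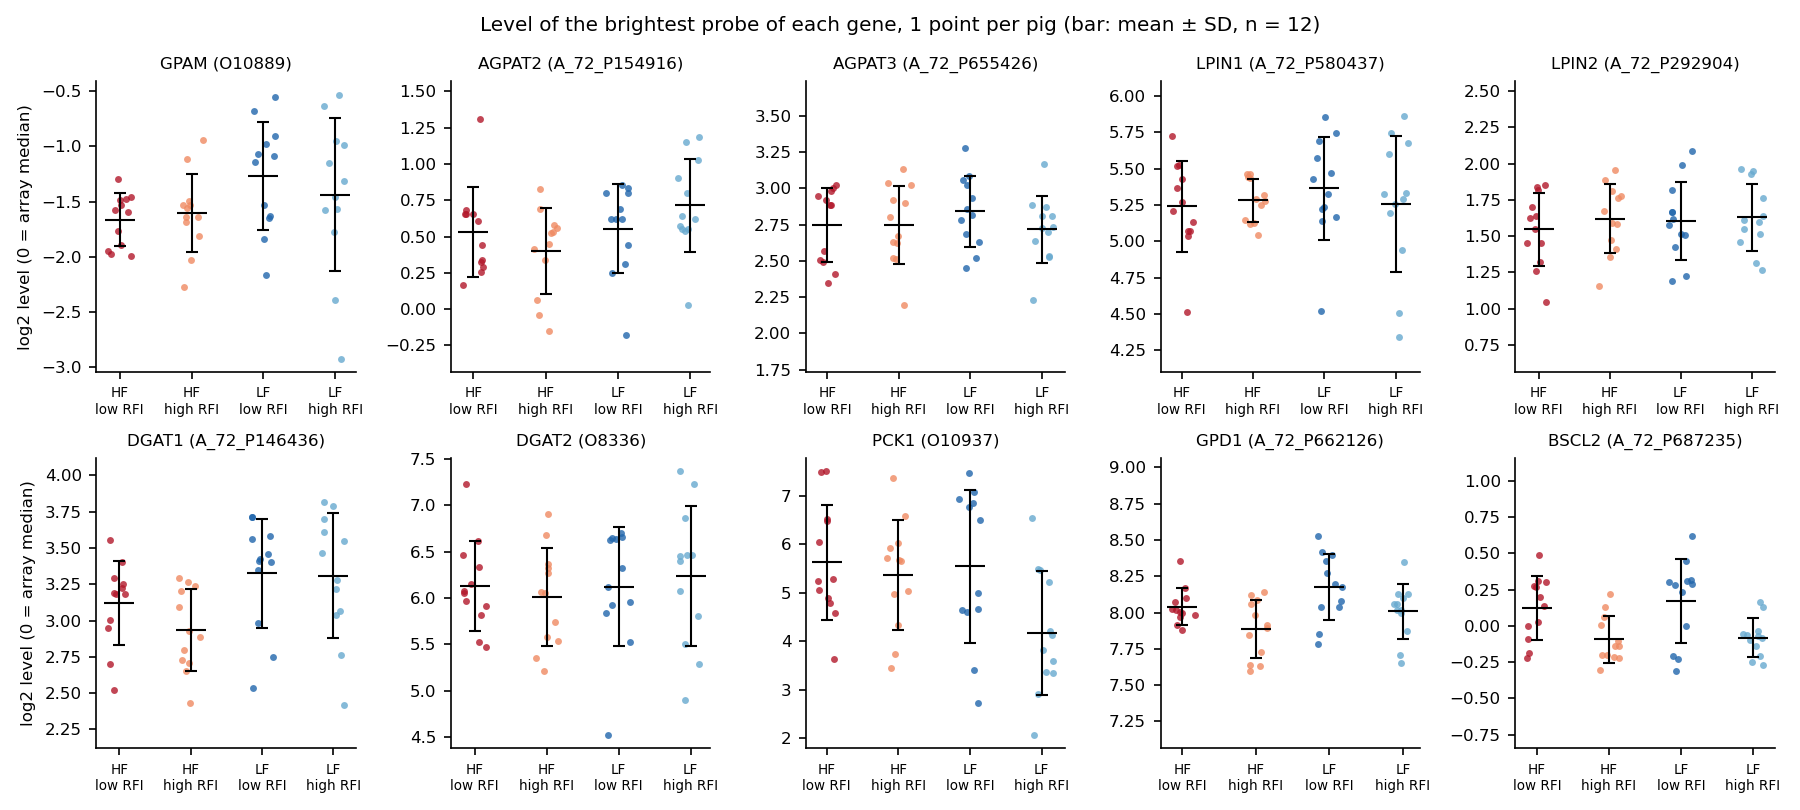
Log2 level of the brightest probe of each member (0 is the median of the array), with 1 point per pig for the 4 groups of diet and line and bars for the mean ± SD (n = 12 each). The HF points of DGAT1 lie lower than the LF points with a wide overlap, and PCK1 spans from 2.06 to 7.51.

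DGAT1, which catalyses the final acylation, ranged from 2.52 to 3.56 around a median of 3.19 in HF low RFI pigs, and from 2.43 to 3.29 around a median of 2.90 in HF high RFI pigs. In LF pigs it ranged from 2.53 to 3.71 (median 3.42) in the low RFI line and from 2.42 to 3.82 (median 3.37) in the high RFI line. The ranges of the groups overlapped widely, with 19 of 24 LF pigs above the HF mean and 22 of 24 HF pigs below the LF mean. Mean levels in HF and LF pigs were 3.03 ± 0.29 and 3.32 ± 0.39 (SD, n = 24 each), which differ by -0.29 (SE 0.10, 95% interval -0.49 to -0.09, limma adjusted p = 0.0474). The HF mean was the lower one on each of the 6 slides, the difference lay between -0.33 and -0.26 with any single pig left out, and it was -0.34 (adjusted p = 0.0209) without the 8 arrays with liver or muscle markers. Within the low RFI line it was -0.20 and within the high RFI line -0.37, and the interaction of 0.17 (SE 0.20) did not pass the test. This interaction was 0.35 in the first scan date alone and -0.01 in the second. With the arrays scaled to their 75th percentile the diet difference was -0.25 (limma adjusted p = 0.0748, raw p over 0.01), and with quantile normalization -0.24 (adjusted p = 0.083). The call was also lost with array position, which was not balanced over the groups, as a block (-0.26, limma adjusted p = 0.171). It was lost too in the 24 arrays of the second scan date alone (-0.21, adjusted p = 0.462).

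DGAT2, the other enzyme of this step, which shares no sequence family with DGAT1, did not pass the test. Its brightest probe had medians of 6.07 and 6.06 in HF low and HF high RFI pigs, and of 6.22 and 6.42 in LF low and LF high RFI pigs. Single pigs lay anywhere between 4.53 and 7.36 (both LF pigs), so that the diets overlapped over the whole HF range. The diet difference was -0.11 (SE 0.17, 95% interval -0.45 to 0.23) for this probe and -0.16 and -0.14 for the other 2, and its sign turned between the scan dates (-0.31 and 0.10). It was -0.21 without the 8 arrays and did not pass, and it lay between -0.18 (without 1 LF low RFI pig) and -0.06 when single pigs were left out. The 3 probes followed each other closely between pigs, with correlations of 0.981 to 0.995 after subtraction of the group means.

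GPAM, the mitochondrial acyltransferase of the entry step, had 1 probe under its current name (O10889), designed on a human transcript record. It lay between -1.99 and -1.29 in HF low RFI pigs (median -1.58) and between -2.28 and -0.94 in HF high RFI pigs (median -1.60). In LF pigs it lay between -2.17 and -0.55 (median -1.11, low RFI) and between -2.92 and -0.53 (median -1.39, high RFI). The difference of -0.28 (SE 0.13, 95% interval -0.55 to -0.01, limma adjusted p = 0.173) did not pass the thresholds. Without the 8 arrays with liver or muscle markers it was -0.38 (SE 0.12, adjusted p = 0.0385) and passed them, as it did with normexp background correction and with limma array weights. Within the scan dates it was -0.43 and -0.13. As for further probes, 2 carry the older name GPAT, which fell outside the rule and were looked up after the values of the members were known: their diet differences were -0.29 (SE 0.12, limma adjusted p = 0.124) and -0.14 (SE 0.07, adjusted p = 0.234).

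The acyltransferases of the next step gave smaller diet differences. AGPAT2, the isoform whose loss causes lipodystrophy in people, had a single probe above background, with medians of 0.52 and 0.49 in HF low and HF high RFI pigs against 0.62 and 0.63 in LF pigs. Its diet difference of -0.17 (SE 0.09, 95% interval -0.35 to 0.01, limma adjusted p = 0.215) was -0.02 within the low RFI line and -0.31 within the high RFI line, with an interaction of 0.29 (SE 0.17) that did not pass the test. Within the scan dates it was -0.27 and -0.07. The second AGPAT2 probe was well above background on 16 of 48 arrays and was not used. The 4 probes of AGPAT3, a broadly expressed isoform, had diet differences between -0.04 and 0.05, each smaller than its SE. Its brightest probe gave -0.03 with a 95% interval of -0.18 to 0.11, and 0.08 and -0.14 within the scan dates.

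The lipins, which also act as transcriptional coactivators, did not pass the test for diet with any probe. For LPIN1, the main adipose lipin, the brightest probe had medians of 5.24, 5.29, 5.38 and 5.31 in HF low, HF high, LF low and LF high RFI pigs, and a difference of -0.05 (SE 0.10, 95% interval -0.24 to 0.14), or -0.15 (SE 0.09, limma adjusted p = 0.352) without the 8 arrays. The 8 LPIN1 probes did not behave as 1 measure, as their correlations between pigs ran from -0.09 to 0.99. The 3 probes near the start of the transcript record had diet differences of 0.17, 0.18 and 0.19 (limma adjusted p between 0.15 and 0.194), whereas those of the 3 probes near the end lay between -0.05 and 0.07. With the 75th percentile scaling, 2 of the early probes passed the thresholds as higher under the HF diet (0.22, adjusted p = 0.0711, and 0.23, adjusted p = 0.064). The latter has the same sequence as the remaining early probe, A_72_P075451, which passed in no setting (limma adjusted p of 0.0869 or more). Without the 8 arrays with liver or muscle markers the 3 early differences were 0.08 to 0.09, and none passed. Per pig, the mean of the early probes minus the mean of the late ones, a split made after the values were seen and therefore not tested, was -2.53 ± 0.26 in HF pigs and -2.70 ± 0.26 in LF pigs (SD, n = 24 each). The 2 diets overlapped in this measure, from -3.00 to -1.77 and from -3.13 to -2.19. For LPIN2, 3 of 4 probes were used (the other was well above background on 4 of 48 arrays) and their diet differences lay between -0.12 and -0.04. The sequence that LPIN2 carries on 2 probes gave -0.12 and -0.07, and these copies correlated at 0.575 between pigs, against 0.99 for the doubled LPIN1 sequence. In 1 HF low RFI pig the LPIN2 copies stood at -1.87 and -0.85, and without that pig they gave -0.11 each and correlated at 0.746.

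**Figure D2:**
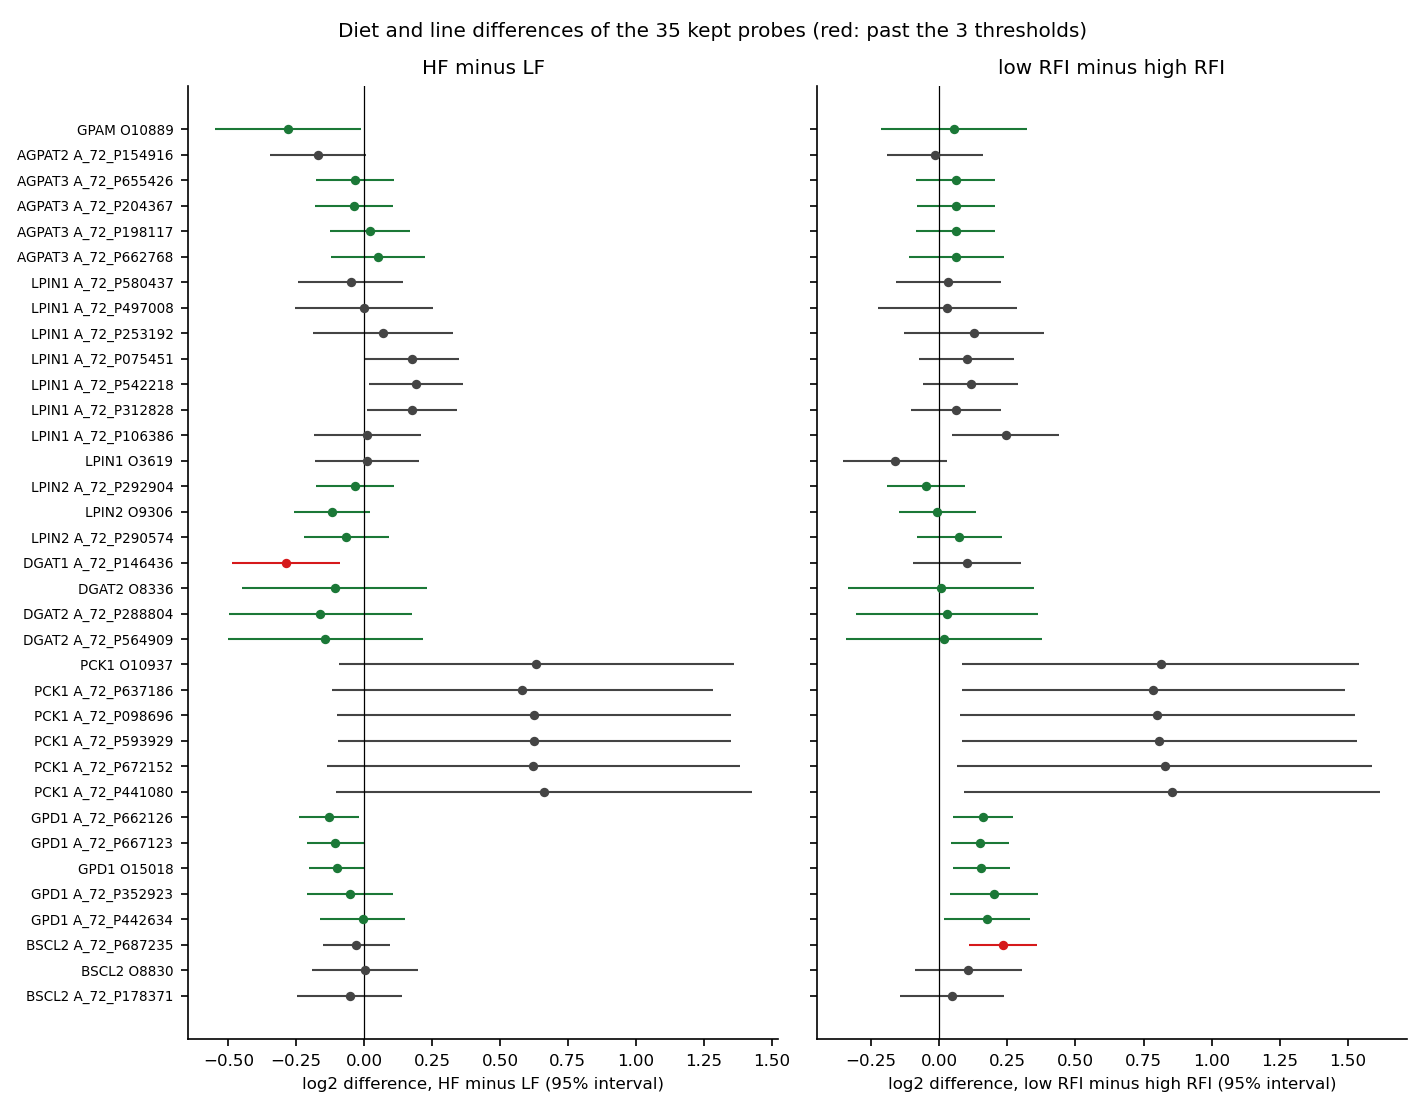
Log2 difference between the diets (left, HF minus LF) and between the lines (right, low minus high RFI) for each of the 35 member probes used, with 95% intervals from limma on 48 arrays and genes in alternating colours. In red are the probes past the 3 thresholds, 1 of DGAT1 for diet and 1 of BSCL2 for line, and the 6 PCK1 probes have the widest intervals.

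Neither gene of glycerol 3-phosphate supply passed the test for diet. PCK1, the member that varied most between pigs, is the cytosolic phosphoenolpyruvate carboxykinase and the control step of glyceroneogenesis. It ranged from 3.63 to 7.51 (median 5.26) in HF low RFI pigs and from 3.44 to 7.36 (median 5.66) in HF high RFI pigs. In LF pigs it ranged from 2.71 to 7.46 (median 5.74) in the low RFI line and from 2.06 to 6.54 (median 3.97) in the high RFI line. The LF high RFI group was thus the one with the lowest median, while its range covered most of that of the others. The SD between pigs within groups was 1.31, larger than in 99.4% of the 11111 genes, against a median of 0.268 over all genes. All 6 probes, from 3 overlapping and 3 separate sites, gave the same picture, with correlations between probes of 0.986 to 0.999.

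The diet difference of PCK1 was 0.63 (SE 0.36, 95% interval -0.09 to 1.36, limma adjusted p = 0.27) and did not pass the test. Over the other settings it ran from 0.38 (limma array weights) to 0.77 (first scan date alone). The 6 probes gave differences of 0.58 to 0.66. Within the low RFI line the brightest probe gave 0.08 (SE 0.51) and within the high RFI line 1.19 (SE 0.51, adjusted p = 0.267), and the interaction of -1.11 (SE 0.72) did not pass either. Over the other settings this interaction ran from -1.88 (array position as a block) to -0.81 (second scan date alone). No probe on the array passed the test of interaction in limma or in the analysis of variance (0%), and 0 member probes had a raw p under 0.05 for it, against 1.04% of all probes. For diet, 3.04% of probes passed within the low RFI line and 1.66% within the high RFI line, none of them a member probe, while 2 and 8 of the 35 member probes had a raw p under 0.05, against 15.1% and 13.9% of all probes. Probes of 1 gene are not separate measures in these counts, as the 6 PCK1 probes correlated at 0.986 to 0.999 between pigs. Over the array the 1349 and 737 calls within the low and high RFI lines became 2853 and 1906 with the replicate block, 4174 and 2328 with array weights, and 15 and 230 with array position as a block.

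GPD1, which makes glycerol 3-phosphate from dihydroxyacetone phosphate, was the least variable member, with an SD of 0.19 between pigs within groups. Its brightest probe ranged from 7.88 to 8.35 (median 8.01) in HF low RFI, from 7.60 to 8.14 (median 7.91) in HF high RFI, from 7.79 to 8.53 (median 8.19) in LF low RFI and from 7.65 to 8.35 (median 8.04) in LF high RFI pigs. The groups overlapped, and 19 of 24 LF pigs were above the HF mean. The diet difference of -0.13 (SE 0.05, 95% interval -0.24 to -0.02, limma adjusted p = 0.118) did not pass the thresholds and was under the 1.1-fold limit. The other 4 GPD1 probes gave differences of -0.11 to -0.01, and the probes at -0.11 and -0.10 carry the same sequence.

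The line comparison asked whether low RFI pigs differed from high RFI pigs, irrespective of diet. BSCL2 was the only member with a called difference, and with 1 of its 3 probes. On the whole array 1.37% of probes and 1.32% of genes passed for line, and of the members 1 of 35 probes (2.86%) and 1 of 10 genes. The line difference was positive for 8 of the 10 members (7 with the 75th percentile scaling or quantile normalization), with a median of 0.06 over the members and 0.02 over all genes. When the 8 arrays with liver or muscle markers were left out, it was positive for 5 of the 10 members with a median of -0.0026, as GPAM (-0.13), AGPAT3 (-0.02) and DGAT2 (-0.10) turned negative and AGPAT2 (-0.06) and LPIN2 (-0.11) remained so. In that setting 10 of the 35 member probes turned sign, none of them called in either fit, and 14 were negative against 4 with all arrays.

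The called BSCL2 probe (A_72_P687235) ranged from -0.22 to 0.49 (median 0.17) in HF low RFI and from -0.31 to 0.62 (median 0.29) in LF low RFI pigs. In the high RFI line it ranged from -0.30 to 0.22 (median -0.14) under the HF diet and from -0.27 to 0.17 (median -0.08) under the LF diet. High levels were thus found in low RFI pigs, while the lowest low RFI pigs reached down to the high RFI range. Mean levels of the low and high RFI lines were 0.15 ± 0.25 and -0.09 ± 0.14 (SD, n = 24 each), a difference of 0.24 (1.18-fold, SE 0.06, 95% interval 0.11 to 0.36, limma adjusted p = 0.046), and the low RFI mean was the higher one on all 6 slides. The other BSCL2 probes gave line differences of 0.11 (SE 0.10, adjusted p = 0.832) and 0.05 (SE 0.10, adjusted p = 0.949). The latter probe (A_72_P178371) was at -3.37 in 1 HF low RFI pig and between -2.10 and -1.29 in all others, and without that pig its line difference was 0.12 and its diet difference turned from -0.05 to 0.02. For diet, the 3 BSCL2 probes gave differences of -0.05 to 0.00. They correlated at -0.03 to 0.40 between pigs, and their mean gave a line difference of 0.13 (SE 0.06, adjusted p = 0.41). Without the 8 arrays with liver or muscle markers the called probe gave 0.23 (SE 0.07, adjusted p = 0.141) and was not called. The call was also lost with array position as a block (0.23, adjusted p = 0.138) and in each scan date alone (0.19, adjusted p = 0.359, and 0.28, adjusted p = 0.612).

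**Figure D3:**
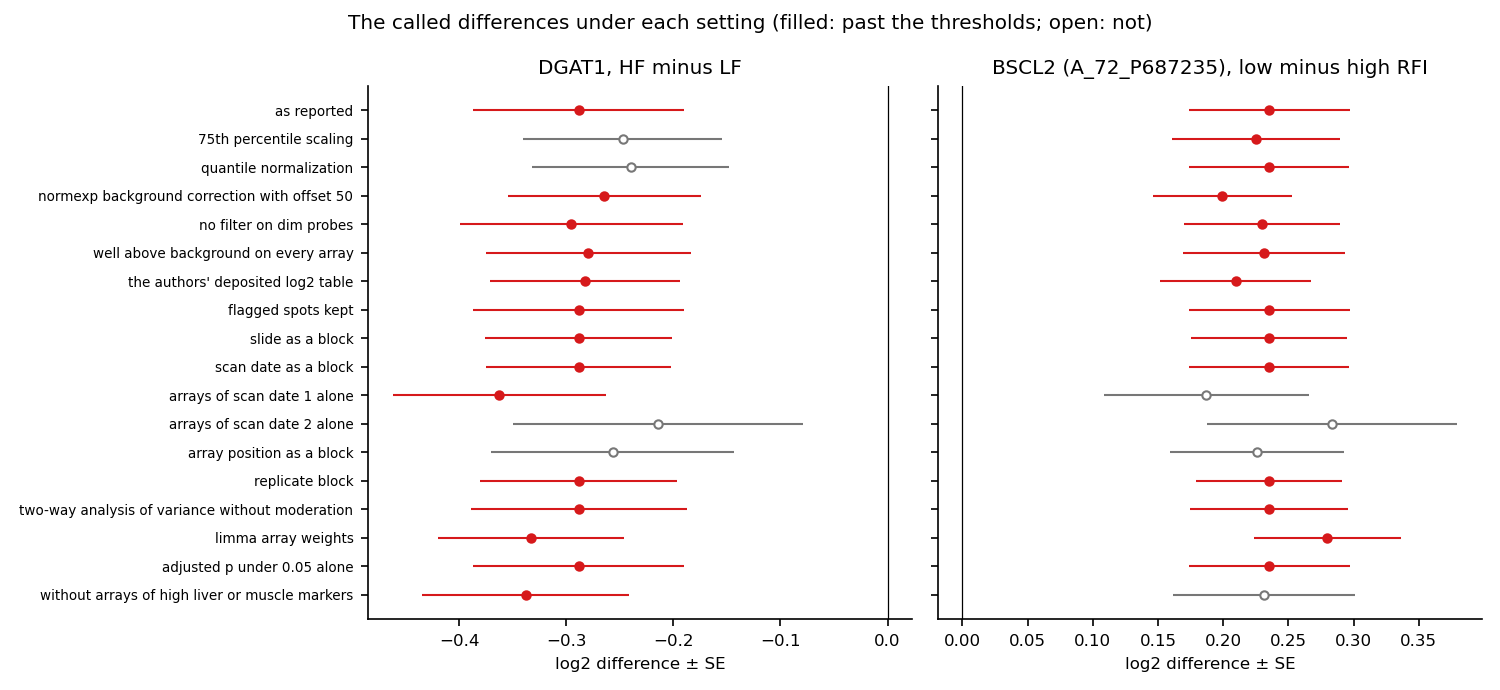
Log2 differences (± SE) of the DGAT1 probe between diets and of the called BSCL2 probe between lines, as reported and under 17 other settings (filled points pass the thresholds, open points do not). Both keep their sign in every setting, DGAT1 between -0.36 and -0.21 and BSCL2 between 0.19 and 0.28, and each loses its call in 4 of them. Blocks for slide, scan date and replicate, balanced over the groups, cannot move the difference, nor can the analysis of variance or the changed threshold.

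Of the 35 member probes, 13 had a raw p under 0.05 for line, against 10.4% of all probes, and these were all 6 of PCK1, all 5 of GPD1 and 1 each of LPIN1 and BSCL2. The brightest GPD1 probe had means of 8.11 ± 0.19 and 7.95 ± 0.20 (SD, n = 24 each) in the low and high RFI lines, a difference of 0.16 (SE 0.05, 95% interval 0.05 to 0.27, limma adjusted p = 0.162). The other 4 GPD1 probes gave 0.15 to 0.20, and the low RFI mean of the brightest probe was the higher one on all 6 slides. The brightest PCK1 probe had means of 5.59 ± 1.37 and 4.77 ± 1.33, a difference of 0.81 (SE 0.36, 95% interval 0.09 to 1.54, adjusted p = 0.384), and the 6 probes gave 0.79 to 0.85. This difference was 0.131 among the 24 pigs scanned on the first date and 1.496 among those scanned on the second. The LPIN1 probe was A_72_P106386 (0.25, SE 0.10, adjusted p = 0.288), whereas another LPIN1 probe, O3619, had a line difference of -0.16 (SE 0.09). The brightest probes of GPD1 and PCK1 gave 0.15 and 0.99 without the 8 arrays. For the remaining members the line difference of the brightest probe lay between -0.05 (LPIN2) and 0.10 (DGAT1).

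The spread between pigs was set against diet as well. For GPAM, the SD within lines was 0.303 in HF and 0.60 in LF pigs, and this ratio of 1.98 was larger than in 99.2% of the genes. For LPIN1 it was 0.246 and 0.416 (ratio 1.69), for DGAT1 0.285 and 0.403 (ratio 1.41) and for DGAT2 0.506 and 0.699 (ratio 1.38). The ratio of the LF to the HF spread was over 1 in 9 of the 10 members, AGPAT3 being the exception, and in 62.9% of all genes. Its median was 1.25 over the members and 1.08 over all genes. These ratios are a description with no test. As 6 of the 8 arrays with liver or muscle markers were from LF pigs, the ratios were computed again without them. They were then 1.78 for GPAM, 1.46 for LPIN1, 1.24 for DGAT1 and 1.31 for DGAT2, over 1 in 9 of the 10 members, and their median was 1.23 over the members and 1.08 over all genes.

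**Figure D4:**
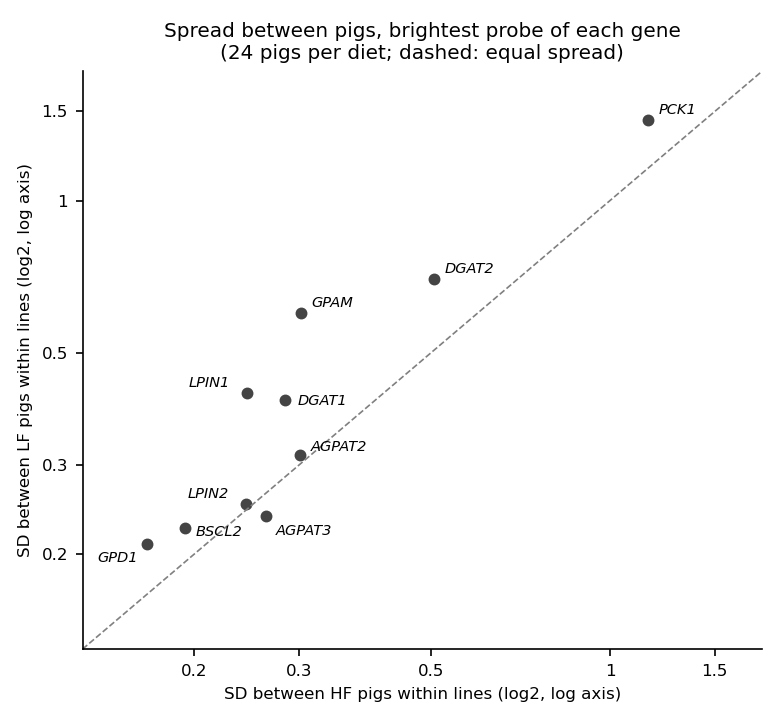
SD between pigs within lines of the brightest probe of each member, under the HF diet (x axis) and the LF diet (y axis), both on log axes in log2 units and over 24 pigs per diet. PCK1 has the largest spread under both diets, and GPAM lies farthest above the dashed line of equal spread.

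Pairs of members were compared across the 48 pigs after subtraction of each group mean, to see which of them varied together. Each member was taken by its brightest probe, and other probes were not tried. The 3 BSCL2 probes correlated with each other at only -0.03 to 0.40, and the LPIN2 probe used correlated with the other 2 at 0.342 and 0.345. Pairs with these members thus hold for the probes used only. Of 45 pairs, 34 had a positive Pearson r, 18 had a Benjamini-Hochberg adjusted p under 0.05 over the 45 pairs (two-sided permutation tests within groups, 100000 resamples), and 7 had r over 0.5, as had 5.34% of pairs among all genes. The median r was 0.284 over the members and 0.00737 over the pairs of 1112 genes (every 10th gene), for which no p was computed. The highest was that of DGAT1 with DGAT2 (r = 0.608, permutation p = 1e-05, the smallest the test can give, adjusted p = 0.00045, and Spearman rho = 0.528, permutation p = 0.00022, adjusted p = 0.0049). It was 0.497 without the 2 pigs farthest from the DGAT1 median, 0.575 and 0.453 within the scan dates and 0.561 with slide means removed. Within the diets it was 0.333 in HF and 0.749 in LF pigs, a difference that was not tested. DGAT1 was also related to LPIN1 (r = 0.549), GPD1 (0.518) and BSCL2 (0.441), in the same range as the 6 pairs among LPIN1, GPD1, BSCL2 and PCK1, from 0.443 (PCK1 with GPD1) to 0.542 (GPD1 with BSCL2). The r of PCK1 with GPD1 was 0.0966 in HF and 0.665 in LF pigs. In the first and second scan date, r was 0.272 and 0.727 for GPD1 with BSCL2, 0.281 and 0.662 for LPIN1 with GPD1, and 0.313 and 0.688 for PCK1 with GPD1. For PCK1 with BSCL2, r was 0.527 (permutation p = 0.0003, adjusted p = 0.0018) and rho 0.498 (permutation p = 0.00066, adjusted p = 0.0049), with 0.517 without the 2 farthest pigs, 0.361 and 0.703 within the scan dates and 0.576 with slide means removed.

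The most negative pair was AGPAT2 with PCK1 (r = -0.437, permutation p = 0.00288, adjusted p = 0.00997, and rho = -0.442, permutation p = 0.00262, adjusted p = 0.0113). It was -0.498 without the 2 farthest pigs, -0.438 and -0.249 within the scan dates and -0.391 with slide means removed. LPIN2 was also negatively related to BSCL2 (r = -0.422, permutation p = 0.00461, adjusted p = 0.0138, and rho = -0.36, permutation p = 0.0159, adjusted p = 0.0421). Within HF and LF pigs, r was -0.637 and -0.284 for AGPAT2 with PCK1, and -0.302 and -0.524 for LPIN2 with BSCL2. Without the 8 arrays, 31 of the 45 pairs were positive and 2 instead of 7 had r over 0.5, namely DGAT1 with DGAT2 (0.526) and GPD1 with BSCL2 (0.572), while the pairs of AGPAT2 with PCK1 and LPIN2 with BSCL2 gave -0.393 and -0.463. The values of a pair share the array and its centring, and the part of tissue composition in these relations was not tested.

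**Figure D5:**
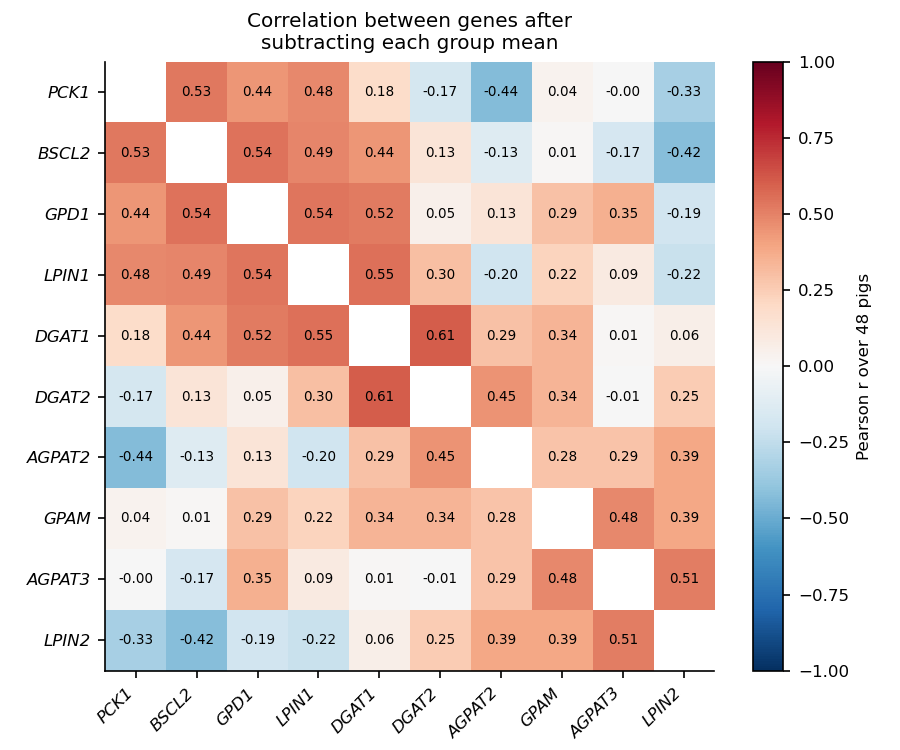
Pearson correlation between the brightest probes of the 10 members over 48 pigs, after each group mean was subtracted (red positive, blue negative). PCK1, BSCL2, GPD1 and LPIN1 are positively related to each other, and the highest value is 0.61 for DGAT1 with DGAT2.

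The genes that varied most like each member across the 48 pigs, after subtraction of the group means, are given as a description. For PCK1 they were SPG20 (r = 0.76), ABHD5 (0.735), the coactivator of adipose triglyceride lipase, and SEP11 (0.677). For GPD1 they were ADIG (0.748), CIDEA (0.705) and NMRAL1 (0.691), the former pair being genes of the differentiated adipocyte. BSCL2 was most like MGLL (0.746), the monoglyceride lipase, TMEM222 (0.716) and GK (0.683), the glycerol kinase. LPIN1 was most like RXRG (0.812), a nuclear receptor, TMEM135 (0.777) and SLC1A5 (0.75). DGAT2 was most like NDUFB6 (0.866), PSPH (0.837) and LPL (0.836), the lipase that releases fatty acids from circulating lipoproteins, and DGAT1 most like COQ5 (0.825), CECR5 (0.821) and ADHFE1 (0.813). For GPAM, the closest was the brighter GPAT-named probe (0.873), followed by TMEM110 (0.685) and RBFA (0.682). AGPAT2 was closest to HMG20B (0.79), POLR3K (0.73) and FN3K (0.717). AGPAT3 was closest to SLC10A3 (0.782), SLC43A2 (0.73) and FAM192A (0.728), and LPIN2 to NUP85 (0.809), GRK6 (0.803) and RPA1 (0.771).

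The other genes of the pathway were counted in lists, at 1 probe per gene. Over all genes 12.6% were called for diet, 9.33% as lower and 3.29% as higher, and the few calls per list are read as single genes only. Of 11 further glycerolipid enzymes that passed the filter, 1 was lower and 2 were higher under the HF diet. AGPAT1, an isoform for the same step as AGPAT2, was lower by 0.21 (SE 0.07, limma adjusted p = 0.0465), with the other 3 probes at -0.26 to -0.22, and did not pass with the 75th percentile scaling. GPAT3, an acyltransferase of the entry step, was higher by 0.49 (SE 0.16, adjusted p = 0.0345), and LPIN3, the remaining lipin, by 0.21 (SE 0.05, adjusted p = 0.00732) with its other 2 probes at -0.04 and 0.11. Both kept their calls after scaling to the 75th percentile and after quantile normalization, where PLPP2, a lipid phosphatase, was called higher as well (0.25, adjusted p = 0.0858 with median centring). GPAT4 was called lower in addition when the 8 arrays were left out.

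Among 12 genes of glycerol 3-phosphate supply, PCK2, the mitochondrial counterpart of PCK1, was higher by 0.38 (SE 0.08, limma adjusted p = 0.00155) and ALDOA, a glycolytic aldolase, was lower by 0.24 (SE 0.07, adjusted p = 0.0144). The remaining 10, with the glycerol channel AQP7 (0.02, SE 0.09), GK (0.06, SE 0.16) and pyruvate carboxylase PC (-0.08, SE 0.04), did not pass with their brightest probe. Among the other probes of these 10 genes, those that passed were 1 of GK as higher (0.66) and 1 each of PC, GOT2 and TPI1 as lower. MDH2 was called lower in addition without the 8 arrays. None of 7 genes of acyl-CoA supply passed with its brightest probe, with differences from -0.21 (ACSL3, adjusted p = 0.077 with a raw p over 0.01) to 0.03 (ACSL5). ACSL3 was called lower with slide as a block, and 1 other probe of ACSL3 and the other probe of SLC27A1 (-0.37) passed without it. Of 8 genes of lipid droplet formation, CIDEA, which enlarges droplets, was lower under the HF diet by 0.36 (SE 0.10, adjusted p = 0.0149), joined by CIDEC after quantile normalization, and PLIN2, a droplet coat protein, was higher in low RFI pigs by 0.79 (SE 0.15, adjusted p = 0.00442). With all arrays and no block, the latter was the only line call in the 5 lists, and PLPP3 was called higher as well with slide as a block or without the 8 arrays.

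Of 10 regulators, 2 were lower and 1 was higher under the HF diet. MLXIPL, the carbohydrate response factor ChREBP, was lower by 0.40 (SE 0.15, limma adjusted p = 0.0701) and CEBPA by 0.14 (SE 0.05, adjusted p = 0.0581), and neither passed with the 75th percentile scaling or quantile normalization. PDK4, an inhibitor of pyruvate dehydrogenase, was higher by 0.63 (SE 0.23, adjusted p = 0.0687), a call that was lost, as was that of MLXIPL, with slide as a block. All 3 other CEBPA probes passed, with larger differences of -0.31 to -0.27, as did 5 of the 10 other PDK4 probes (0.46 to 0.69 over the 10). CEBPA and PDK4 were not called without the 8 arrays. PPARG, the driver of adipocyte differentiation, differed by -0.05 (SE 0.06) and SREBF1, a regulator of lipogenic genes, by -0.16 (SE 0.10). SREBF1 was called lower with slide as a block, and 1 of its 2 other probes passed as lower without it. For PPARGC1A and FOXO1, 1 other probe each passed as higher. Median diet differences were -0.07 for glycerolipid enzymes, -0.13 for glycerol 3-phosphate supply, -0.11 for acyl-CoA supply, -0.10 for lipid droplet formation and -0.04 for regulators, against -0.04 over all genes.

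Markers of cell types were set beside these results. For diet, 1 of 10 adipocyte markers was called (LEP, lower by 0.67, SE 0.16, limma adjusted p = 0.00494), the median over the list was -0.06, and group medians of its mean level were 7.66 and 7.63 in HF low and HF high RFI pigs and 7.80 and 7.73 in LF pigs. All 6 fibroblast and preadipocyte markers had a positive diet difference with a median of 0.18, of which PDGFRA was called (0.31, SE 0.11, adjusted p = 0.0661), and the mean level over the list was 5.62 and 5.76 in HF low and HF high RFI pigs against 5.42 and 5.56 in LF low and LF high RFI pigs. PDGFRA was not called after quantile normalization. For line, these 6 markers and 8 of 10 macrophage markers had negative differences (low minus high RFI) without any call, with list medians of -0.12 and -0.15. With the 8 arrays left out, 5 of the 6 and 8 of the 10 were negative, with medians of -0.09 and -0.07. The 6 endothelial markers had medians of 0.00 for diet and 0.04 for line, and the 7 blood cell markers of 0.00 and -0.01. All 7 skeletal muscle and all 4 liver markers had a negative diet difference without any call at the brightest probe, with medians of -0.22 and -0.38. With slide as a block, the muscle marker MYH1 was called lower. Among the other probes of the marker genes not called, 2 of ADIPOQ and 1 of COL3A1 passed as higher and 1 of CKM as lower under the HF diet. The muscle and liver medians were -0.14 and 0.18 without the 8 arrays, with 1 muscle marker called lower (MYLPF) and 2 of the 4 liver markers negative. As those arrays were left out for high levels of these same markers, this change is no separate result. The part of these markers in the DGAT1 and BSCL2 differences was not tested.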

How the data were processed

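The authors hybridized 1 Cy3-labelled RNA sample per pig to custom porcine arrays, 8 to a slide, and read them with Agilent Feature Extraction 10.7.3.1 per the file headers. In the deposited scanner files each spot has an intensity (linear scale), and the processed intensity used here is background-subtracted. A log2 table was also deposited by the authors, made with R 2.10.0 per the submitters' processing notes. A comparison with the scanner files showed log2 median spot intensities, without background subtraction, minus the array median for 38987 probes, 34 of them of members (largest difference 4.87e-09).

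Here, 156 spots flagged as outliers among the probes used were set to missing, and values were log2 processed intensities minus the array median over the probes used. Groups, taken from the sample titles, were fitted as 4 means in limma 3.58.1 (R 4.3.3, lmFit and eBayes with trend, two-sided, all 48 arrays), with Benjamini-Hochberg adjustment over all 44356 probes and the study's thresholds. The methods' own test, a two-way analysis of variance without moderation, was 1 of the alternatives. The titles number 12 samples per group, and p-values measure the spread between these. Each of the 6 slides held 2 arrays of every group, and each scan date 24 arrays. Array positions on a slide were not spread evenly over the groups. Position is thus partly confounded with diet and line, and a block for it also takes up part of their differences. Array number and brightness over background limit the precision. All probes were listed as unmapped, so that no genome position is given, and names come from the array files and the Sscrofa11.1 gene table (28283 probes with 1 of 12920 symbols). A gene was represented by its brightest probe. Scripts were tested on simulated data. The members, lists and rules were chosen with earlier results of these data known. Every member probe was analysed. From the lists, called genes and a few others, chosen after their values were seen, are named, with the 3 genes of highest correlation to each member. Other scalings, filters, blocks, weights and thresholds were tried as given in the closing section.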

Additional observations from a re-analysis of the deposited data

How the results depend on the processing

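Of the counts of member probes called (1 for diet, 1 for line, 0 for the interaction and 0 for diet within either line), those for diet were 2 with 75th percentile scaling, 2 with normexp background correction (offset 50; GPAM and DGAT1), 3 with limma array weights (those and GPD1), 0 in the arrays of the second scan date alone and 0 with array position as a block. Under 75th percentile scaling the 2 were LPIN1 probes and DGAT1 was lost, and after quantile normalization the single call was an LPIN1 probe in place of DGAT1. The count for line was 0 in each scan date alone, 0 with array position as a block, 0 with the mean of all probes of a gene and 12 with limma array weights (the 6 PCK1 probes, 4 of GPD1, 1 of LPIN1 and 1 of BSCL2). Diet within high RFI pigs gave 1 with array weights (DGAT1). Without the 8 arrays with liver or muscle markers, an alternative chosen after seeing the data (as was leaving out single pigs), 2 member probes were called for diet (GPAM and DGAT1) and 0 for line. The interaction and diet within low RFI pigs stayed at 0 in every setting run. The causes were not tested. Over the whole array, 43% of the diet calls were higher under the HF diet with the arrays centred on their median, against 67.2% with 75th percentile scaling and 50.5% after quantile normalization.

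Arrays with the same replicate number always shared a slide (72 of 72 pairs), and their deviations from the group means correlated at 0.16 on average, with 48 of 72 pairs over 0.1. Arrays of different number correlated at 0.0872 on the same slide and at -0.0246 across slides. What same-numbered arrays share beyond the slide was not tested. With the replicate block, 1 member probe was called for diet and 1 for line, the same probes as without it, and the number of calls over the array moved from 5790 to 7124 for diet and from 606 to 1140 for line. The calls for line over the array also numbered 957 with slide as a block, 399 with no filter on dim probes, 425 and 1 in the scan dates alone, 262 with array position as a block, 278 without the 8 arrays, 402 at an adjusted p under 0.05 alone and 1820 with array weights, and those for diet 2407 and 1230 in the scan dates alone and 5487 without the 8 arrays. For diet within the low and high RFI lines, 1349 and 737 calls became 2373 and 1659 with slide as a block, 1860 and 1229 with scan date as a block, 7 and 241 in the first scan date alone, 0 and 0 in the second, 752 and 422 at an adjusted p under 0.05 alone, 900 and 378 with no filter on dim probes, and 1406 and 435 without the 8 arrays.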
